A study of Homo sapiens with 10 samples.

Results

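The 10 genes described here encode chemokines of epithelial cells: CXCL1, CXCL2, CXCL3, CXCL5, CXCL8, CXCL10, CXCL11, CCL2, CCL20 and CX3CL1. They were read from every probe set annotated to 1 of them and to no other gene, which gave 17 of the 41091 probe sets that name 1 gene, for 10 of 19775 genes. RNA was profiled with 10 HG-U133 Plus 2.0 arrays (Affymetrix) from RWPE-1 cells, an immortalised and non-tumorigenic line of human prostate epithelium. All cells had been transduced with MSCV retroviruses, had been selected as stable clones and carried the biotin ligase BirA. The groups were cells labelled as carrying BirA and ERG (3 arrays), cells carrying BirA and ETV1 (4 arrays) and control cells carrying BirA alone (3 arrays). ERG and ETV1 are transcription factors of the ETS family, and fusions activate them in prostate tumours. The design text gives each group 3 biological replicates, whereas the labels give ETV1 4 arrays. Nothing states whether the arrays of a group came from separately derived clones, so p-values reflect variation among these arrays, which may be technical in part.

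Chemokines are small secreted proteins that guide migrating cells along a gradient by binding G protein-coupled receptors. CXCL1, CXCL2, CXCL3, CXCL5 and CXCL8 carry the ELR motif before their CXC cysteines and attract neutrophils, mainly through CXCR2. CXCL10 and CXCL11 lack that motif, are induced by interferons and attract activated T cells through CXCR3. CCL20 binds CCR6 on dendritic cells and lymphocytes, CCL2 binds CCR2 on monocytes, and CX3CL1 is a membrane-tethered chemokine that binds CX3CR1. In epithelium, inflammatory chemokines are textbook targets of the transcription factor NF-kB, which inflammatory cytokines such as IL-1 and TNF activate, and of AP-1.

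Of the 10 members, 7 lie on chromosome 4. CXCL8, CXCL1, CXCL5, CXCL3 and CXCL2 lie there in that order with only other chemokine genes between them, and CXCL10 and CXCL11 are direct neighbours further along. The upstream bases of 6 members are shown as examples, and those of CXCL3 and CXCL10, which also hold the NF-kB motif, are not shown. They run 5′ to 3′ over the 150 bases before the gene's start in RefSeq (GRCh38.p14). Capitals mark matches to the 10-base NF-kB motif and to the AP-1 motif TGANTCA, on either strand.
CXCL8, chr4:73740419-73740568, plus strand: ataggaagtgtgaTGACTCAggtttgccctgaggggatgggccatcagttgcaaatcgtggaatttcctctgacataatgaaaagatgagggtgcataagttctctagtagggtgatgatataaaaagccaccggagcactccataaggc
CXCL11, chr4:76036071-76036220, minus strand: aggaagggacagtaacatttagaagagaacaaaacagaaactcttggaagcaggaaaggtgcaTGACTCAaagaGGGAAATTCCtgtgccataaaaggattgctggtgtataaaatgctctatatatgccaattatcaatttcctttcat
CCL20, chr2:227813692-227813841, plus strand: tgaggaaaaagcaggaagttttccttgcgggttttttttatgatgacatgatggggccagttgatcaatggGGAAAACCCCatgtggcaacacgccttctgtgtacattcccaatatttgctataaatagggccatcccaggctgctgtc
CXCL2, chr4:74099196-74099345, minus strand: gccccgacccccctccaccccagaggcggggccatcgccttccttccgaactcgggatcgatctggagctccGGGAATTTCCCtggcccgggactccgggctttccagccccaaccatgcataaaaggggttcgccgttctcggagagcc
CXCL1, chr4:73869243-73869392, plus strand: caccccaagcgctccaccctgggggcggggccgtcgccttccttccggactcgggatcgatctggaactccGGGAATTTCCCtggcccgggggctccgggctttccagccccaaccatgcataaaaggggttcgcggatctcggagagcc
CXCL5, chr4:73998678-73998827, minus strand: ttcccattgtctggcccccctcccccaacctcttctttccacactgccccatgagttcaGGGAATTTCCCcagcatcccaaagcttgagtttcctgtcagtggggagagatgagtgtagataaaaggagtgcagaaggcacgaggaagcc

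Promoter sequence was at hand for 8 members, and CCL2 and CX3CL1 were not examined. In the 250 bases before the start, 7 of these 8 promoters held the NF-kB motif, against 9.96% of 35116 promoters of the same length. CXCL1, CXCL2, CXCL3 and CXCL5 shared the same match, GGGAATTTCC, starting 79, 78, 79 and 91 bases before the start, with an overlapping match on the other strand. CXCL11 held its match 76 bases before the start, CCL20 on the minus strand 79 bases before it, and CXCL10 held 1 match 177 and another 122 bases before it. The motif searched for was GGGRNNYYCC, where R is A or G, Y is C or T and N is any base. No full match was found in the CXCL8 window, but that window holds tggaatttcc, which differs from the motif at its first base only. Near matches were not counted in any promoter, so the missing match does not show that CXCL8 lacks an NF-kB site. The AP-1 motif was present in CXCL8 and CXCL11, against 6.57% of all promoters. The interferon-stimulated response element (ISRE) motif was present in CXCL10 alone among the 8, against 3.02% of all promoters, and the ETS motif CCGGAA in CXCL1 alone, against 14.5%. For ETS only CCGGAA was searched, so other sequences that hold GGAA, such as aggaagt in the CXCL8 and CCL20 windows, were not counted. The missing matches do not show that the other promoters lack an ETS site. A match describes these letters and not a bound site. The 250-base promoters of CXCL1 and CXCL3 were 84.0% identical, those of CXCL1 and CXCL2 78.8% and those of CXCL2 and CXCL3 78.4%. The 3 genes are closely related copies, so their NF-kB matches may not count as separate ones among the 7 of 8 promoters. No transcript or probe sequences were compared. Whether their probe sets share signal was not tested.

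Of the 5 probe sets of ETV1, 3 were higher in the cells carrying it, with 844 to 1689 on the ETV1 arrays and 70.3 to 122 on the control arrays for the one with the largest difference. The other 2 did not pass (log2 fold changes of 0.14 and 0.19, limma adjusted p = 0.79 and 0.66). By their IDs, the 3 that were higher may also match other transcripts, whereas the IDs of the other 2 carry no such mark. The probe sets of ERG went opposite ways on the arrays labelled ERG. One of them read 25.7 to 49.95 there, against 5.32 to 11.2 on control arrays, whereas another read 7.70 to 10.8 there, against 183 to 191 on control arrays. The one that was higher lay below the median of every array, and by its ID may also match other transcripts. The remaining ERG probe sets did not pass against control (log2 fold changes of 0.29 and 0.34, limma adjusted p = 0.35 and 0.14), though both did after median centring (0.70 and 0.75). ERG itself therefore did not settle that label. The arrays labelled ERG also stood apart as a whole. Over all probe sets, their Spearman correlation with control arrays was 0.766 to 0.811, whereas that of ETV1 arrays with control arrays was 0.956 to 0.969. The 3 prime to 5 prime ratio of ACTB (which reads how complete the labelled RNA is) was 2.75 to 3.07 on the arrays labelled ERG, 1.24 to 1.30 on ETV1 arrays and 1.352 to 1.4004 on control arrays. For GAPDH that ratio overlapped between the arrays labelled ERG and ETV1, at 0.946 to 1.04 on the arrays labelled ERG, 0.994 to 1.05 on ETV1 arrays and 0.893 to 0.931 on control arrays. The cre spike-in control read 21757 to 24245 on the arrays labelled ERG, 11578 to 12802 on ETV1 arrays and 11334 to 12007 on control arrays. Where a gene had several probe sets that passed the test, they went the same way for 96.8% of 960 genes between ETV1 and control, but for 46.2% of 6799 genes between the arrays labelled ERG and control. In the comparison of the arrays labelled ERG with control, more of these genes thus had probe sets going opposite ways than the same way. Whether the values of these arrays were made differently, or stand beside the wrong probe sets, was not tested. The directions given below for single genes on the arrays labelled ERG describe the deposited values and carry that limit. Basal epithelial markers such as KRT5 and KRT14 were present in all groups, with all 6 examined above the median of each array. Of 5 luminal markers, 4 lay above it on all arrays too, among them KRT8 and KRT18. In the arrays labelled ERG against control, 1 luminal marker was called higher, KRT8, and 2 lower, KLK3 and ACP3. Of 10 leukocyte markers, none lay above the array median on all arrays, but 5 did so on 6 to 9 arrays. Among these, CD3E, of T cells, read 22.2 to 49.3 on the arrays labelled ERG, 165 to 187 on ETV1 arrays and 147 to 224 on control arrays, whereas PTPRC, which marks all leukocytes, lay below the median on every array. The summed leukocyte intensity was 256 to 294 on arrays labelled ERG, 631 to 684 on ETV1 arrays and 602 to 690 on control arrays. The sum of 6 endothelial markers was 230 to 275, 1410 to 1564 and 1508 to 1684 on arrays labelled ERG, ETV1 and control, most of it from PECAM1, which lay above the median on all arrays. That of 8 fibroblast markers, of which COL1A1 and DCN lay above the median on all arrays, was 288 to 392 on arrays labelled ERG, 1174 to 1226 on ETV1 arrays and 1026 to 1292 on control arrays. These sums moved with the differences of the arrays labelled ERG, and their part in them was not tested.

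Values below are linear intensities, as deposited. Differences are log2 fold changes of intensity + 16, tested with limma over 54613 probe sets, with adjusted p from the Benjamini-Hochberg procedure and a threshold of 0.05. The added 16 makes the fold changes of dim probe sets smaller than their intensity ratios. Where a gene has several probe sets they are called the first, the second and the third by their mean over the groups. Of the 17 member probe sets, 2 lay above the median intensity on all 10 arrays (the first of CXCL2 and that of CXCL3) and 6 lay above it on none, among them the only CCL2 probe set and all 3 of CXCL5. RNA came from whole cultures, so fewer cells making a transcript and less RNA per cell cannot be told apart.

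In ETV1 cells CXCL8 and CXCL11 were higher than in control cells. Of the 17 member probe sets, 3 passed in limma and all 3 were higher, those of CXCL8 (1 of 2) and CXCL11 (both), against 4.97% of all probe sets called higher and 5.95% called lower (10.9% in all). The median log2 fold change was 0.13 over the 17 member probe sets and -0.01 over all probe sets. In all, 6 member probe sets had every ETV1 array above every control array (background 10.6%), those of CXCL1, CXCL3 and CXCL10, the first of CXCL8 and both of CXCL11, and 1, the second of CXCL5, had every ETV1 array below (background 12.2%).

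On the arrays labelled ERG more members differed, and so did most of the genome. Between these arrays and control, 8 member probe sets of 7 genes were called higher and 2 lower. Without overlap, 8 lay above control and 3 below (background 32.4%, 32.2% and, in either direction, 64.6%). Of all probe sets, 31.8% were called higher and 31.9% lower, a total of 63.7%. The largest member differences were those of CCL20, CXCL11, CXCL2 and CXCL8. When each array was centred on its median, the median log2 fold change of all probe sets in this comparison moved from 0.01 to 0.42, and the share called higher among all called probe sets went to 69.5%, against 49.9% as deposited. Against ETV1 that share went to 69.4%, against 50.2% as deposited. The median over the member probe sets was 0.51 as deposited and 0.92 after centring.

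**Figure D1:**
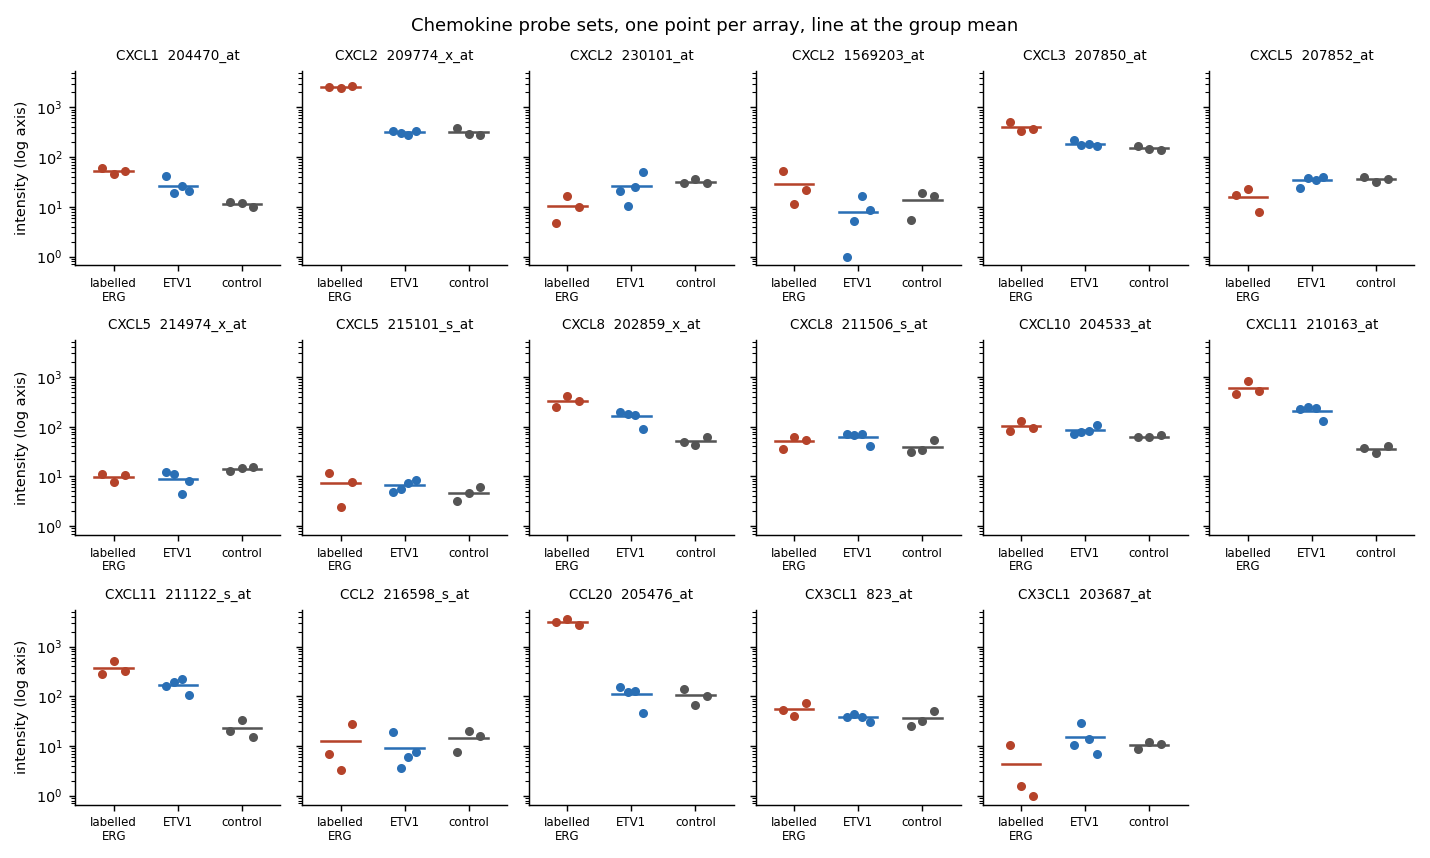
Intensity of each of the 17 chemokine probe sets on every array (log axis), with the arrays labelled ERG in red, ETV1 in blue and control in grey, and a line at each group's mean. CCL20 and the first CXCL2 probe set stand far higher on the arrays labelled ERG than on the others, whereas CXCL11 and the first CXCL8 probe set step up in both ERG-labelled and ETV1 cells.

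CXCL8, the main neutrophil attractant of epithelium, was read by a pair of probe sets. The first read 250, 413 and 327 on the arrays labelled ERG, 199, 180, 173 and 90.7 on ETV1 arrays A to D, and 50.1, 42.4 and 62.7 on control arrays. Every ETV1 array lay above every control array, and every array labelled ERG lay above every ETV1 array. The log2 fold change was 1.34 in ETV1 against control (SE 0.23, limma adjusted p = 0.0020), 2.33 in the arrays labelled ERG against control (SE 0.25, adjusted p = 2.4e-06) and 0.99 in the arrays labelled ERG against ETV1 (SE 0.23, adjusted p = 0.0018). The second read 36.4, 62.9 and 53.5 on the arrays labelled ERG, 71.4, 67.5, 70.3 and 41.4 on ETV1 arrays, and 30.4, 33.4 and 54.8 on control arrays. Here the groups overlapped, and the log2 fold changes of 0.51 in ETV1 (SE 0.21, limma adjusted p = 0.17) and 0.27 in the arrays labelled ERG (SE 0.23, adjusted p = 0.31) did not pass. The second value passed after quantile normalization (0.63) and median centring (0.68). The CXCL8 call rests on the first, whose ID marks it as one that may also match other transcripts.

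CXCL11, a T cell attractant induced by interferons, gave matching readings from both of its probe sets. The first read 456, 838 and 520 on the arrays labelled ERG, 226, 251, 237 and 130 on ETV1 arrays, and 37.5, 30.1 and 41.3 on control arrays. The second read 274, 508 and 327 on the arrays labelled ERG, 163, 190, 218 and 104 on ETV1 arrays, and 19.98, 32.7 and 14.8 on control arrays. On both, the groups fell in the same order with no overlap. The ratio of mean intensities between ETV1 and control was 5.81 on the first and 7.5 on the second. The log2 fold changes were 2.09 (SE 0.23, limma adjusted p = 6.8e-05) and 2.25 (SE 0.25, adjusted p = 7.4e-05) in ETV1 against control, the value of the second being 1.41 with a pseudocount of 64. In the arrays labelled ERG they were 3.53 (SE 0.25, limma adjusted p = 5.1e-08) and 3.30 (SE 0.27, adjusted p = 1.9e-07) against control, and 1.44 and 1.06 against ETV1 (limma adjusted p = 7.3e-05 and 0.0019).

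CXCL10, the chromosomal neighbour of CXCL11 and a ligand of the same receptor, moved far less. It read 81.3, 129 and 92.7 on the arrays labelled ERG, 71.4, 79.9, 81.7 and 108 on ETV1 arrays, and 61.1, 61.1 and 67.1 on control arrays. Both groups lay above all control arrays, but they overlapped each other. The difference of 0.35 in ETV1 against control (SE 0.17) did not pass in limma (adjusted p = 0.26). The rise of 0.55 in the arrays labelled ERG (SE 0.18, limma adjusted p = 0.019) did not pass without ERG-labelled replicate B (0.38) or without control replicate B (0.53), and was 0.90 after quantile normalization and 0.95 after median centring. CXCL9, the remaining ligand of that receptor, averaged 18.8 ± 4.39 on the arrays labelled ERG, 85.0 ± 15.9 on ETV1 arrays and 94.5 ± 34.9 on control arrays (SD, n = 3, 4 and 3). Its log2 fold change was -1.63 in the arrays labelled ERG against control (limma adjusted p = 2.1e-05) and -0.10 in ETV1 against control (adjusted p = 0.86), so the 3 CXCR3 ligands did not go together.

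The ETV1 arrays were not alike in these genes. ETV1 replicate D had the lowest reading of the 4 for CXCL8, CXCL11 and CX3CL1 on both probe sets, and for CXCL3 and CCL20. It had the highest for CXCL10, for the CXCL2 probe set that read 49.3 there and for the CXCL5 probe sets that read 40.9 and 8.57. On the remaining member probe sets replicate D was neither the lowest nor the highest. The 3 raised ETV1 probe sets were lowest on the same array, at 844 on one against 1302 to 1689 on the other ETV1 arrays, at 685 on another against 907 to 1127, and at 547 on a further one against 797 to 1049. On the other 2 ETV1 probe sets replicate D was not the lowest, reading 108 against 74.6 to 93.7 on one and 52.3 against 33.9 to 58.2 on the other. The 5 prime part of 18S ribosomal RNA read 276 on replicate D and 680 to 874 on the other ETV1 arrays, against 79.4 to 159 on control arrays, and its part in these results was not tested. Without replicate D the rise of the first CXCL8 probe set was 1.57 and those of CXCL11 were 2.28 on the first and 2.44 on the second.

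**Figure D2:**
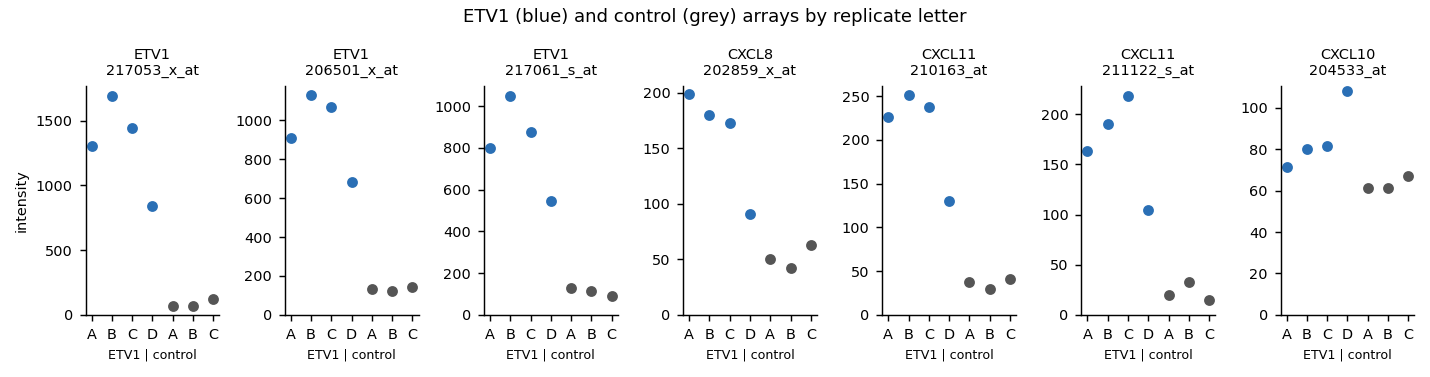
Intensity (linear axes from 0) of 3 ETV1 probe sets and of the first CXCL8, both CXCL11 and the CXCL10 probe sets on ETV1 arrays A to D in blue and control arrays A to C in grey. ETV1 array D is the lowest of the 4 in the ETV1, CXCL8 and CXCL11 panels, still above every control array, and the highest for CXCL10.

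CXCL1, CXCL2 and CXCL3, the closely related ELR chemokines, were each called higher on the arrays labelled ERG by at least 1 probe set. The first probe set of CXCL2 read 2628, 2465 and 2665 on the arrays labelled ERG, 337, 304, 283 and 333 on ETV1 arrays, and 391, 295 and 285 on control arrays. The arrays labelled ERG formed a group of their own, at 7.99 times the control mean, while ETV1 and control arrays overlapped. The log2 fold change was 2.95 in the arrays labelled ERG against control (SE 0.14, limma adjusted p = 1.3e-09), 2.98 against ETV1 (SE 0.13, adjusted p = 4.6e-10) and -0.03 in ETV1 against control (SE 0.13, adjusted p = 0.94). Like that of CXCL8, this probe set may by its ID also match other transcripts, and the other CXCL2 probe sets did not follow it. The second read 4.66, 16.3 and 10.1 on the arrays labelled ERG, 21.2, 10.4, 25.0 and 49.3 on ETV1 arrays, and 30.1, 36.0 and 29.6 on control arrays. It fell in the arrays labelled ERG against control by 0.88 (SE 0.27, limma adjusted p = 0.012), a call that ended after median centring (-0.47) and without ERG-labelled replicate A (-0.72), and its size was -1.67 with a pseudocount of 1 and -0.37 with 64. Against ETV1 it was lower by -0.64 with overlapping groups (limma adjusted p = 0.040), a call made in only 8 of 19 alternative settings. The third gave 51.9, 11.4 and 21.5 on the arrays labelled ERG, 1, 5.21, 16.5 and 8.71 on ETV1 arrays, and 5.37, 18.7 and 16.7 on control arrays, a difference against control of 0.51 that did not pass in limma (adjusted p = 0.18), though it passed without ERG-labelled replicate B (0.80) and after median centring (0.92), and was 0.15 without ERG-labelled replicate A. Against ETV1 it was higher by 0.83 with overlapping groups (limma adjusted p = 0.023), which did not pass without ERG-labelled replicate A (0.47) or ETV1 replicate A.

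CXCL3 read 501, 335 and 361 on the arrays labelled ERG, 220, 178, 183 and 170 on ETV1 arrays, and 167, 144 and 141 on control arrays. Every array labelled ERG lay above all others, and the ETV1 arrays lay just above the control arrays. The log2 fold change was 1.30 in the arrays labelled ERG against control (SE 0.16, limma adjusted p = 1.1e-05) and 1.01 against ETV1 (SE 0.15, adjusted p = 4.5e-05), while the 0.29 in ETV1 against control (SE 0.15) did not pass (adjusted p = 0.31). CXCL1 was dim and ordered in the same way, with 59.9, 45.6 and 51.6 on the arrays labelled ERG, 41.2, 19.3, 26.3 and 20.5 on ETV1 arrays, and 12.8, 12.2 and 10.03 on control arrays. Its groups did not overlap. It rose by 1.30 in the arrays labelled ERG against control (SE 0.20, limma adjusted p = 5.3e-05), or by 2.07 and 0.62 with pseudocounts of 1 and 64, and by 0.70 against ETV1 (SE 0.18, adjusted p = 0.0039), or by 1.13 after median centring and 0.36 with a pseudocount of 64. In ETV1 against control the difference of 0.60 (SE 0.18) just missed the threshold in limma, with an adjusted p of 0.0502, and it passed in 5 of 20 alternative settings, among them those without ETV1 replicate B (0.69) and without ETV1 replicate D (0.67).

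CXCL5 was near the bottom of the scale on all of its probe sets. The first read 17.0, 22.8 and 7.84 on the arrays labelled ERG, 24.0, 37.7, 34.2 and 40.9 on ETV1 arrays, and 40.4, 32.1 and 35.7 on control arrays. The arrays labelled ERG lay below all others. The fall against control was -0.73 (SE 0.20, limma adjusted p = 0.0064) and against ETV1 -0.67 (SE 0.19, adjusted p = 0.0067), and both calls ended when arrays were centred on their medians (-0.32 and -0.24). With a pseudocount of 1 they were -1.24 and -1.15. The other CXCL5 probe sets read 2.38 to 15.6 over all arrays and passed in none of the 3 comparisons. After median centring they ran against the first, the third being higher in the arrays labelled ERG than in control (0.57) and in ETV1 (0.46), and the second higher than in ETV1 (0.49). CXCL6, which lies next to CXCL8 and is a close relative of CXCL5, was among the genes of the chemokine list that passed in ETV1 cells. Its probe set lay below the median of every array. It read 6.96, 9.37 and 7.85 on the arrays labelled ERG, 42.5, 39.0, 44.7 and 32.1 on ETV1 arrays, and 10.8, 13.7 and 20.1 on control arrays. It rose by 0.85 in ETV1 against control (SE 0.16, limma adjusted p = 0.0031), or by 1.39 with a pseudocount of 1 and 0.39 with 64, and differed by -0.35 in the arrays labelled ERG (adjusted p = 0.087).

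CCL20, which attracts CCR6-bearing dendritic cells and lymphocytes, gave the largest difference of any member. It read 3178, 3652 and 2673 on the arrays labelled ERG, 154, 122, 125 and 46.4 on ETV1 arrays, and 140, 68.0 and 103 on control arrays. The lowest array labelled ERG was far above the highest of the other 7, and ETV1 and control arrays overlapped. The mean of the arrays labelled ERG was 30.5 times that of control. The log2 fold change was 4.77 against control (SE 0.31, limma adjusted p = 3.0e-08), 4.72 against ETV1 (SE 0.29, adjusted p = 1.2e-08) and 0.05 in ETV1 against control (SE 0.29, adjusted p = 0.96). It rests on the only probe set of this gene.

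CCL2, the monocyte attractant, read 6.88, 3.27 and 27.8 on the arrays labelled ERG, 18.9, 3.54, 6.06 and 7.41 on ETV1 arrays, and 7.71, 20.4 and 15.8 on control arrays. These values lay below each array's median, the groups overlapped, and no comparison passed in limma (adjusted p of 0.59 to 0.67). CX3CL1, the tethered chemokine, was also dim. The first probe set read 52.7, 40.1 and 71.7 on the arrays labelled ERG, 37.8, 43.0, 38.9 and 30.5 on ETV1 arrays, and 24.7, 31.8 and 51.1 on control arrays, with overlap throughout. Its difference of 0.46 in the arrays labelled ERG against control (SE 0.22) did not pass in limma (adjusted p = 0.079), but passed after quantile normalization (0.80) and median centring (0.87), without ERG-labelled replicate B (0.61) and without control replicate C (0.66). The second gave 10.5, 1.59 and 1 on the arrays labelled ERG, 10.6, 28.4, 13.7 and 6.91 on ETV1 arrays, and 8.84, 11.9 and 10.9 on control arrays, with overlap. It fell by 0.59 in the arrays labelled ERG against ETV1 (limma adjusted p = 0.031), a call lost after median centring (-0.16) and without ETV1 replicate B (-0.40) or C (-0.59), or ERG-labelled replicate B (-0.50) or C (-0.47). The call also ended with only these groups fitted and at a threshold of 0.01. Its size was -1.85 with a pseudocount of 1 and -0.20 with 64. The direct comparison of the arrays labelled ERG with ETV1 called 8 of the 17 member probe sets higher and 3 lower, against 33.9% and 33.6% of all probe sets (67.5% in all). Without overlap, 7 lay above ETV1 and 1 below (background 33.2%, 32.6% and, in either direction, 65.7%).

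**Figure D3:**
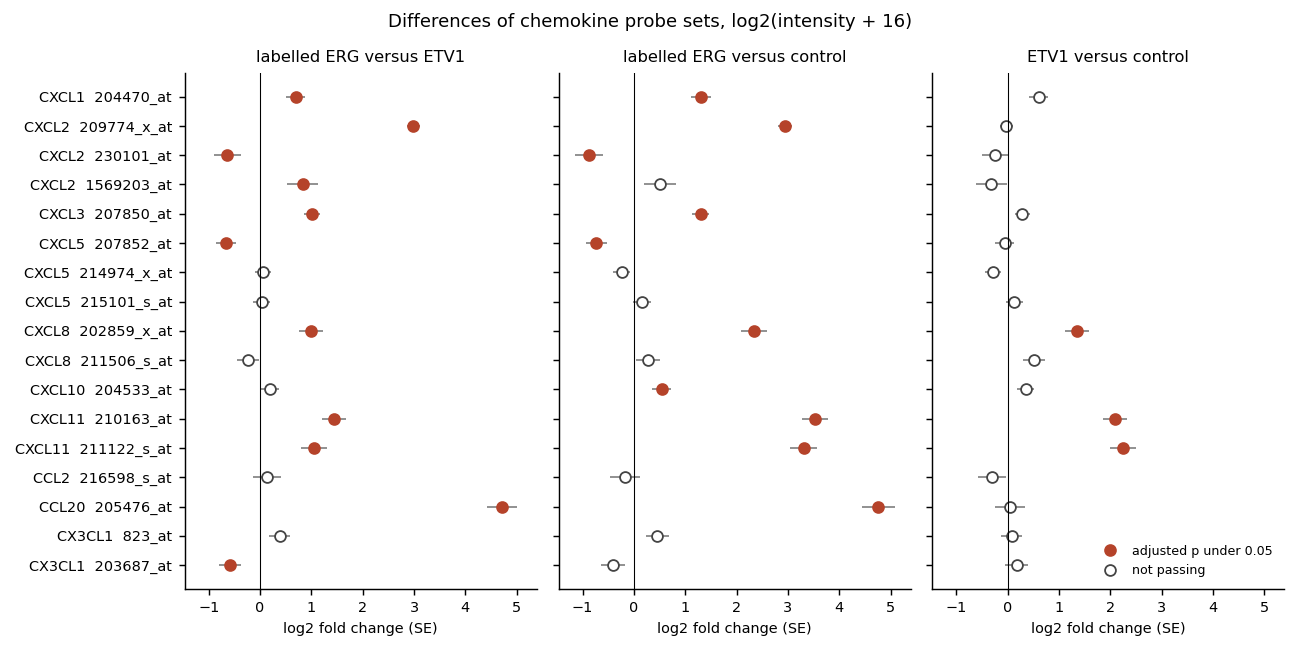
Log2 fold change of each member probe set with its standard error in the 3 comparisons, filled where the limma adjusted p was under 0.05. In ETV1 against control only the first CXCL8 probe set and both CXCL11 probe sets are filled, while CCL20 and the first CXCL2 probe set lie at 4.77 and 2.95 in the arrays labelled ERG against control and near 0 in ETV1.

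The likeness of the members over the 10 arrays is given as a description with no test, since the arrays share their groups. On log2 values, the first probe sets of CXCL8 and CXCL11 had a Pearson correlation of 0.99, and those of CXCL2 and CCL20 one of 0.98 (n = 10 arrays). CXCL3 was close to CCL20 (0.94) and CXCL2 (0.94), and CXCL1 to CXCL3 (0.93), CXCL8 (0.90) and CXCL11 (0.90). The correlations of CCL2 with the other members ranged from -0.47 to 0.37. CXCL5 ran against CXCL2 (-0.83). Among 17677 probe sets with a standard deviation above 0.5, the 5 genes closest to CXCL8 were CXCL11 (0.99), CCNG2 (0.98), SH3KBP1 (0.98), ITGB2-AS1 (0.98) and HIBADH (0.97). CCNG2, an unusual cyclin linked to arrest of the cell cycle, averaged 1046 on the arrays labelled ERG, 622 on ETV1 arrays and 216 on control arrays.

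Genes that surround the chemokines were read from 1 probe set each, the one with the highest mean over the groups. That rule favours a probe set that is high in a single group, such as those of NFKBIB and LTB on the arrays labelled ERG. Other probe sets of these genes are not given and may go another way. Among genes read this way, 5.38% were called higher and 9.17% lower in ETV1 against control, 39.4% and 31.0% in the arrays labelled ERG against control, and 41.9% and 32.0% in the arrays labelled ERG against ETV1. Over all probe sets the shares in the arrays labelled ERG were even, at 31.8% and 31.9% against control and 33.9% and 33.6% against ETV1. Of 28 other chemokines, 2 were higher and none lower in ETV1 cells, CXCL6 and the T cell attractant CCL5. CCL5 read 284, 365 and 297 on the arrays labelled ERG, 257, 223, 257 and 141 on ETV1 arrays, and 125, 132 and 111 on control arrays. It rose by 0.73 in ETV1 (SE 0.18, limma adjusted p = 0.020), a call that ended without any of ETV1 replicates A, B and C or without any control array (0.65 to 0.92 over all single arrays left out), or with only these groups fitted. In the arrays labelled ERG, 9 of the 28 were higher and 10 lower, and CXCL12, the ligand of CXCR4, read 25.2, 10.3 and 21.3 there, against 953, 1067 and 641 on control arrays (log2 fold change -4.69, limma adjusted p = 1.6e-08). The next in size were XCL1 (-2.52), CCL23 (-2.22) and CCL25 (-1.64), which with a pseudocount of 64 were at -1.36, -1.08 and -0.84.

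Of 20 chemokine receptors none passed in either direction in ETV1 cells, and 6 were higher and 7 lower in the arrays labelled ERG. CXCR2, the receptor of the ELR chemokines, read 69.3, 88.0 and 67.9 on the arrays labelled ERG, 11.03, 12.9, 5.78 and 5.39 on ETV1 arrays, and 7.94, 13.4 and 12 on control arrays. Its log2 fold change in the arrays labelled ERG against control was 1.75 (SE 0.18, limma adjusted p = 1.8e-06), or 2.67 with a pseudocount of 1 and 0.89 with 64. CXCR5, CCR1 and CCR9 were lower there, at -1.48, -1.42 and -1.29, or -0.83, -0.78 and -0.64 with a pseudocount of 64. The receptors of CCL20 and CX3CL1, CCR6 and CX3CR1, looked up because they bind these members, differed by -0.28 and 0.15 in the arrays labelled ERG against control (limma adjusted p = 0.25 and 0.52).

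In the list of NF-kB subunits and feedback genes, 4 of 12 were higher and none lower in ETV1 cells, with a list median of 0.04, and 7 were higher and 2 lower in the arrays labelled ERG. NFKBIB, an inhibitor of NF-kB, gave the largest difference of the list, at 2019, 2062 and 1296 on the arrays labelled ERG, 33.8, 29.8, 26.8 and 24.0 on ETV1 arrays, and 66.7, 47.4 and 38.0 on control arrays. It was read from a probe set that may by its ID match other transcripts too. Its log2 fold change was 4.75 in the arrays labelled ERG against control (limma adjusted p = 7.2e-10) and -0.56 in ETV1 (adjusted p = 0.079). NFKBIZ, an NF-kB cofactor, read 1336, 1166 and 1497 on the arrays labelled ERG, 1152, 1163, 1049 and 983 on ETV1 arrays, and 520, 480 and 398 on control arrays. It rose by 1.20 in ETV1 (SE 0.13, limma adjusted p = 4.9e-05) and by 1.48 in the arrays labelled ERG (SE 0.14, adjusted p = 5.7e-07). TNFAIP3, which shuts NF-kB signalling off, was raised in both as well, by 1.10 in ETV1 (limma adjusted p = 0.0011) and by 1.64 in the arrays labelled ERG (adjusted p = 4.8e-06). RELB, a subunit, rose by 0.72 in ETV1 (limma adjusted p = 0.015, not passing without control replicate C, 0.65) but was lower in the arrays labelled ERG than in ETV1, by -1.57 (adjusted p = 2.3e-06). TNIP1, a partner of TNFAIP3, rose by 1.68 in the arrays labelled ERG, or by 1.07 after quantile normalization, and by 0.58 in ETV1, where the call ended without ETV1 replicate A, B or C or control replicate B or C (0.40 to 0.61), or with only these groups fitted.

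Of 16 inducing cytokines and their receptors, 1 was higher and none lower in ETV1 cells, and 9 were higher and 6 lower in the arrays labelled ERG. IL1A, the cytokine of that call, read 5058, 6208 and 7204 on the arrays labelled ERG, 2231, 2720, 2452 and 1384 on ETV1 arrays, and 1488, 1167 and 1072 on control arrays. ETV1 replicate D fell within the control range. The rise of IL1A in ETV1 was 0.78 (SE 0.20, limma adjusted p = 0.024), a call that ended without ETV1 replicate A, B or C or control replicate B or C, or with only these groups fitted. In the arrays labelled ERG against control IL1A rose by 2.29 (SE 0.22, limma adjusted p = 8.4e-07), and IL1B, whose values there were 3725, 5431 and 6010 against 742, 655 and 623 on control arrays, rose by 2.85 (SE 0.21, adjusted p = 8.0e-08). LTB, a cytokine of the TNF family, rose there by 3.57, or by 2.30 with a pseudocount of 64. IL17RC, a receptor chain for IL-17, fell by 2.81 (limma adjusted p = 3.9e-10). TNF also fell, reading 8.42, 20.4 and 14.0 on the arrays labelled ERG, 98.6, 109, 163 and 106 on ETV1 arrays, and 78.9, 89.6 and 104 on control arrays (log2 fold change -1.83, limma adjusted p = 3.8e-06).

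Of 10 interferon signalling genes, 2 were higher and none lower in ETV1 cells, and 8 were higher and none lower in the arrays labelled ERG. SOCS3, a feedback inhibitor of cytokine signalling, rose by 1.31 in ETV1 (SE 0.19, limma adjusted p = 5.6e-04), or by 0.86 with a pseudocount of 64, and by 2.08 in the arrays labelled ERG (adjusted p = 1.1e-06). IRF1, a transcription factor induced by interferon, read 1904, 2143 and 2175 on the arrays labelled ERG, 687, 658, 662 and 655 on ETV1 arrays, and 760, 799 and 531 on control arrays. It rose by 1.57 in the arrays labelled ERG against control (SE 0.14, limma adjusted p = 5.7e-07), or by 1.05 after quantile normalization. IRF2, a related factor that can oppose IRF1, rose by 1.86 and SOCS1, another feedback inhibitor, by 1.66, or 0.95 with a pseudocount of 64. In ETV1 the rise of SOCS1 was 0.97 (limma adjusted p = 0.035), a call that ended without any 1 ETV1 array (0.95 to 0.98), without ERG-labelled replicate A (0.97), without control replicate C (0.51), with a pseudocount of 1 (1.55) and with only these groups fitted. Of 10 genes of mRNA stability and chemokine trimming, 2 were higher and 2 lower in ETV1 cells. The lower ones were KHSRP and ELAVL1, different RNA-binding proteins of AU-rich messages, at -0.64 and -0.66 (limma adjusted p = 0.0035 and 0.0022). The higher ones were AUH (0.55) and ZFP36L1 (0.67), the call of ZFP36L1 ending without ETV1 replicate A, B or C or control replicate B or C (0.56 to 0.67), or with only these groups fitted. In the arrays labelled ERG, 4 were higher and 2 lower. AUH rose by 1.91, ZFP36, which speeds the decay of AU-rich messages, by 1.44 (0.84 after quantile normalization) and ELAVL1 by 0.61, which was 0.0029 and did not pass after quantile normalization. ADAM17, a protease that sheds CX3CL1, was at -1.52 (limma adjusted p = 8.2e-07), on a probe set that may by its ID match other transcripts too.

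Between the arrays labelled ERG and the ETV1 arrays, 10 of the other chemokines were higher and 11 lower, 5 and 8 of the receptors, 6 and 2 of the NF-kB list, 9 and 6 of the cytokines, 7 and 0 of the interferon genes, and 4 and 2 of the mRNA stability list. The largest differences among the chemokines and receptors were log2 fold changes of -4.72 for CXCL12, -2.59 for XCL1, -2.09 for CCL23, -1.53 for CXCL9, 1.88 for CXCR2, -1.73 for CXCR5, -1.28 for CCR1 and -1.17 for CCR2, and with a pseudocount of 64 all but that of CXCL12 shrank by over 1.5 times. In the NF-kB and cytokine lists they were 5.32 for NFKBIB, 1.60 for NFKBIE, 1.10 for TNIP1 (0.33 after quantile normalization), 3.16 for LTB, -2.56 for IL17RC, 2.21 for IL1B and 2.17 for IFNLR1, the receptor chain for type III interferons. Of the remaining genes IRF2 was at 2.02, IRF1 at 1.61 (1.01 after quantile normalization), SOCS3 at 0.77 (1.20 after median centring), ADAM17 at -1.35, AUH at 1.36, ZFP36 at 1.39 and ELAVL1 at 1.28, the last 3 falling to 0.87, 0.67 and 0.54 after quantile normalization. The difference of the kinase JAK1, 0.81, did not pass after quantile normalization (0.17, limma adjusted p = 0.229).

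**Figure D4:**
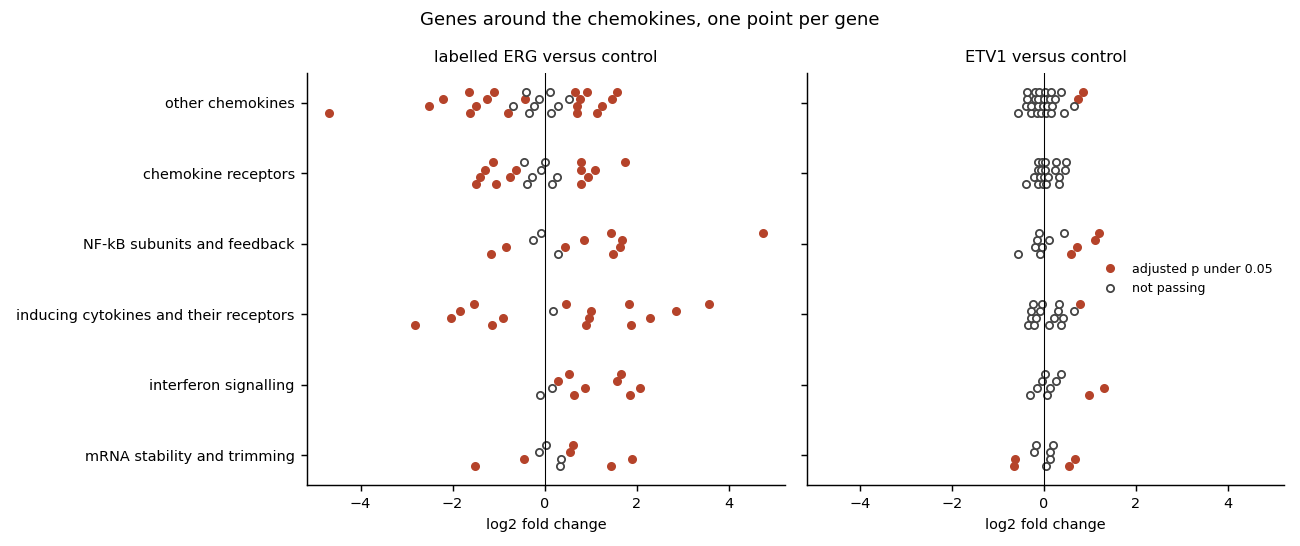
Log2 fold changes against control of the genes of 6 lists around the chemokines, each gene read from 1 probe set, on the arrays labelled ERG at the left and on ETV1 arrays at the right, with filled points where the limma adjusted p was under 0.05. In ETV1 cells 11 of the points are filled on the right of 0, among them NFKBIZ at 1.20 and SOCS3 at 1.31. On the left of 0, 2 are filled there, ELAVL1 at -0.66 and KHSRP at -0.64. Of all genes read this way, 5.38% were called higher and 9.17% lower in ETV1 cells. The arrays labelled ERG have filled points on both sides in every list except interferon signalling.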

How the data were processed

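The deposited table holds 1 intensity per probe set and array on a linear scale. The software and normalization by which the authors made these intensity values are not given in the sources used here, and values gather at a floor of 1. Per the labels' protocols, total RNA was extracted with Trizol and labelled as biotin cRNA. Of 54675 probe sets, 62 controls were left out and 54613 were tested. GEO's platform annotation gave 41091 of them 1 gene, 1801 several and 11721 none. From these values, log2(intensity + 16) was fitted with limma 3.58.1 in R 4.3.3 (lmFit, then eBayes with an intensity trend, two-sided) in one model of the 3 groups with 7 residual degrees of freedom, without a filter, with Benjamini-Hochberg adjustment over all probe sets in each comparison. Members and gene lists were chosen with earlier results of these data known. All members are named. Of each other list, at most 4 genes per comparison are named, those that passed with the largest absolute fold change. TNF, CCR6, CX3CR1 and the cell type markers were named after their values were seen. Alternatives were normalization, filter, trend, probe set choice, groups fitted, replicate block, pseudocount, threshold and each array left out. The number of arrays limits the precision. The silenced prostate cancer lines named by the series were not analysed here.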

Additional observations from a re-analysis of the deposited data

Results flagged for a closer look

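Among the 17 chemokine probe sets, 2 had an ETV1 array set apart from the other 3 on the log2 scale. Chance sets an array apart in about 1 of 20 such groups. For the second CXCL8 probe set, ETV1 replicate D read 41.4, against 67.5 to 71.4 on the other ETV1 arrays, and its gap to the nearest was 0.889 of the group's range, above Dixon's critical value at the 95% level. For the first CXCL11 probe set, the same array read 130, against 226 to 251, a gap of 0.838 of the range.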

How the results depend on the processing

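The call of the first CXCL8 probe set and both CXCL11 calls kept their direction and passed in all 3 comparisons under every alternative that included them, as did the first CXCL2 probe set, CXCL3, CCL20 and CXCL1 in the arrays labelled ERG against control. No direction of a called value was reversed. With 1 probe set per gene, fewer were tested, and 14053 were called in the arrays labelled ERG against control (34794 as reported), 14751 against ETV1 (36889) and 3283 in ETV1 against control (5962). In ETV1 against control, 3190 were called without _s_at and _x_at probe sets and 3089 at a threshold of 0.01. Without _s_at and _x_at probe sets, which removed the first CXCL8, the first CXCL2 and the second CXCL11 probe sets, the members called higher numbered 1 in ETV1 against control (3 as reported) and 5 in the arrays labelled ERG against control (8) and against ETV1 (8). Members called lower in the arrays labelled ERG numbered 0 after median centring and 0 with the filter on low values, against both control (2 as reported) and ETV1 (3). They numbered 1 against each with 1 probe set per gene and at a threshold of 0.01, and 1 against ETV1 with only those groups fitted. The cause was not tested.

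Leaving out each array gave 32305 to 34635 probe sets in the arrays labelled ERG against control, 34578 to 37367 against ETV1 and 3602 to 7032 in ETV1 against control, the lowest without control replicate B. Members called higher were 7 to 9 in both comparisons of the arrays labelled ERG and 3 to 4 in ETV1 against control. Members called lower were 2 in the arrays labelled ERG against control each time, and 1 to 3 against ETV1, with 1 without ETV1 replicate C and 1 without ERG-labelled replicate C. Deviations of same-letter arrays correlated at -0.0992 to 0.0229 and those of different-letter arrays at -0.111 to 0.0873. No deviation shared by replicate letter was thus seen, which does not show that the arrays were unpaired. With the letter as a replicate block, 34083 probe sets were called in the arrays labelled ERG against control, 34889 against ETV1 and 4485 in ETV1 against control, and among the members only the second CXCL2 probe set against ETV1 changed its call (-0.40, limma adjusted p = 0.147). Fold changes of dim probe sets depend on the pseudocount.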
